A study of Homo sapiens with 6 samples.

Results

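The SP and KLF proteins are transcription factors that carry a cluster of zinc fingers at the end of the protein and bind GC-rich promoter sequence, the GC box and the related CACCC box. SP1 and SP3 are found in nearly all cell types and compete for the same GC boxes, SP4 is best known from neurons, and the KLF proteins include activators and repressors of growth and differentiation genes. In cancer cells SP1, SP3 and SP4 are linked to the expression of growth and survival genes, and SP1 has been reported as a partner through which NR4A1, an orphan nuclear receptor also called Nur77 or TR3, acts at GC-rich promoters. The members described here were the 10 genes SP1, SP2, SP3, SP4, KLF4, KLF5, KLF6, KLF9, KLF10 and KLF13, taken as every probe that the intensity table assigns to one of these symbols. These were 19 of 47230 probes, for 10 of 31333 gene symbols.

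The study measured gene expression on Illumina BeadChips in PANC-1, an established human pancreatic cancer cell line, in 3 arrays after transfection with a small interfering RNA against NR4A1 (siNR4A1, spelled siTR4A1 in the sample titles) and in 3 arrays after a control one (siControl). The siRNA sequences, dose and time after transfection were not given in the sources used here, and the replicates are not stated to be separate cultures, so the p-values cover the spread among these arrays only, and that spread may be technical. In bulk RNA of this kind, fewer cells of a type and less RNA per cell cannot be told apart. NR4A1 itself gave no reading: all 3 NR4A1 probes were below the detection threshold on all 6 arrays. Mean signal ran from 439 to 520 on the siNR4A1 arrays, against 332 to 623 on the siControl arrays, with siControl replicate 3 the brightest of all; between 18173 and 20466 probes were detected per array. Of 7 markers of the line, VIM, KRT8, KRT18, KRT19 and EPCAM were detected, and KRT7 and CDH1 on no array. Of 16 markers of other cell types 5 were kept: CD14, COL1A1, COL1A2, ACTA2 and ALB. Their summed level was 600.5 to 639.9 in siNR4A1 and 601 to 634 in siControl (linear scale after normalization). Only 1 passed the test, CD14, which rose by 0.44 on the log2 scale (limma, adjusted p = 0.0163). ACTA2 at -0.37 and ALB at -0.32 fell just short of it (limma, adjusted p = 0.0501 and 0.0587). COL1A1 differed by 0.17 and COL1A2 by -0.08. The remaining markers, among them PTPRC, CD3E, PECAM1 and VWF, were not kept. The part of these markers in the results was not tested.

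Because SP proteins bind GC boxes, the promoters of the members with a changed probe are shown first. They were read from RefSeq promoter windows on GRCh38.p14, from 250 bases before to 50 bases after a start site, and 9 of the 10 members matched. Where a gene has several windows, the one at its annotated start is printed. Capitals mark each GC box, searched as GGGCGG on both strands with overlaps allowed. Of 35116 promoter windows in the RefSeq table, 45.0% hold at least 1 such match and 9.06% hold at least 4. The windows lie at chr12:53379926-53380225 (plus strand) for SP1, chr2:173965653-173965952 (minus strand) for SP3, chr7:21427833-21428132 (plus strand) for SP4, chr10:3785160-3785459 (minus strand) for KLF6 and chr9:70414608-70414907 (minus strand) for KLF9.
SP1: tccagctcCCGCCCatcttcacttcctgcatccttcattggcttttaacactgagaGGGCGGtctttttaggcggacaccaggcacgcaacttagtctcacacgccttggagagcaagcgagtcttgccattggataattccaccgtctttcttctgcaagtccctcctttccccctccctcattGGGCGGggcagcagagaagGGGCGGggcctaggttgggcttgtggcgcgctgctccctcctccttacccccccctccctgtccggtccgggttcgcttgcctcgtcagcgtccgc
SP3: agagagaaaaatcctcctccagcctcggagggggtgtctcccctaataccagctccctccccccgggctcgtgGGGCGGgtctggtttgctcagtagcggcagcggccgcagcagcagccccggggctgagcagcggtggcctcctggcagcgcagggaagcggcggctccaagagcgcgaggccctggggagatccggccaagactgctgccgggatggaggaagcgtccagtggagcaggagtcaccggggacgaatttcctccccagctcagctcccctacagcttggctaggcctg
SP4: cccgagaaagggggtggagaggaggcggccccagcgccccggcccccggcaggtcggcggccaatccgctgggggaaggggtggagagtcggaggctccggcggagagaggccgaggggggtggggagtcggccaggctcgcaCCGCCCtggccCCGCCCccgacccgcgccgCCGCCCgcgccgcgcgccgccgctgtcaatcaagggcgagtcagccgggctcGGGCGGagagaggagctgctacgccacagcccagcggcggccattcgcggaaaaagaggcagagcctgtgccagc
KLF6: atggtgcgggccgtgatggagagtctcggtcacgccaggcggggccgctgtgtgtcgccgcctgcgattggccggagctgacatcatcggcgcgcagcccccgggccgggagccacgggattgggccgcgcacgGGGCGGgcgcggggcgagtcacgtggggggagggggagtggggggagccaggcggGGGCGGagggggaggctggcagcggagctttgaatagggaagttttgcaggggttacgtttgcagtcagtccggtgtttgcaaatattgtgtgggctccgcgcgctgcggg
KLF9: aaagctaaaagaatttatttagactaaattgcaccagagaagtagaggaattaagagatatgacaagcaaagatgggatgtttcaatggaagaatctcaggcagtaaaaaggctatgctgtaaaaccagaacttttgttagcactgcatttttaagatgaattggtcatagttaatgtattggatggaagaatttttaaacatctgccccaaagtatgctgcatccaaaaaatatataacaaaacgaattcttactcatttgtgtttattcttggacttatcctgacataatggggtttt

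The SP1 and SP4 windows held 4 GC boxes each, and a second SP1 window, downstream, held 10. The KLF6 window held 2, the SP3 window 1 and each of the 2 other SP3 windows 2. KLF9 had no match, and its window was 32.7% G and C, against 60.7% for SP1 and 76.7% for SP4. The KLF5 window at its annotated start also had 0 matches, at 40.7% G and C, and its second window held 2. The KLF4 window held 4 and the KLF13 window 3. CACCC, searched on both strands, was present in the SP4 window with 3 matches and in the SP3 window with 1, and was absent from those of SP1, SP2, KLF6 and KLF9, where 59.9% of all windows hold it. A match is a run of letters and not a measured binding site.

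The promoter of SP2 is shown separately, at chr17:47895986-47896285 (plus strand) on GRCh38.p14, because of its number of matches to another motif, CCAAT. It held 2 GC boxes and 8 matches to CCAAT on both strands, in 7 separate places since a match on one strand overlaps one on the other at the first. In the sequence below capitals mark CCAAT or its reverse complement ATTGG. Of all 35116 windows 34.6% hold at least 1 match to CCAAT, and 2 hold at least 8, the SP2 window being one of them. The motif itself is not particular to SP2. At the annotated start SP1 had 3 matches, KLF6, KLF9 and KLF13 had 2 each and SP4 had 1, while SP3, KLF4 and KLF5 had 0.
SP2: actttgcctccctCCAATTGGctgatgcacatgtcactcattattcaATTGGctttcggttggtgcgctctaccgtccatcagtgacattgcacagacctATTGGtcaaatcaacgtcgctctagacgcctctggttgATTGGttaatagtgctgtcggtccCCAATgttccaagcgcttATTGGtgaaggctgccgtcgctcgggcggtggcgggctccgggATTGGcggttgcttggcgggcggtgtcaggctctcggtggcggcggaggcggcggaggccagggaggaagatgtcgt

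Of the 19 probes, 17 were detected on at least 3 of the 6 arrays and were tested, 14 of them detected on all 6. In siNR4A1 cells SP1, SP2, SP3, SP4 and KLF9 rose, each with 1 probe past the threshold, and KLF6 fell with 1 probe past the threshold (limma, Benjamini-Hochberg adjusted p under 0.05 over all 19083 tested probes). Thus 6 of the 17 tested probes changed, or 35.3%, where 15.6% of all tested probes changed. Rises were 5 of 17, against a background of 7.98%, and the single fall stood against 7.62%. The groups did not overlap for 9 of the 17 probes, 6 with siNR4A1 higher and 3 with siNR4A1 lower, where 33.1% of all tested probes did not overlap. The 17 probes had a median log2 change of 0.15, and all tested probes one of 0.01. KLF5 was detected on 3 siNR4A1 arrays and 1 siControl array, and 1 of the KLF6 probes on 1 and 3, so these passed the detection rule mainly through the group where they were higher.

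Before normalization siControl replicate 3 was brighter than the other siControl arrays. The SP1 probe, ILMN_1676010, had signals of 532, 669 and 706 on the siNR4A1 arrays, against 335, 266 and 775 on siControl replicates 1 to 3. The KLF6 probe ILMN_1735014 had 2500.2, 2723 and 3166 on the siNR4A1 arrays, against 2394, 2129 and 5212 on the siControl arrays. Its raw signals on siControl replicates 1 and 2 were thus below those of every siNR4A1 array. The fall of KLF6 given below was seen on all siControl arrays only after normalization. On siControl replicate 3 both probes were brighter than on any other array, and raw signals overlapped between the groups for all 17 tested probes. All levels given next are log2 signals after background correction with an offset of 50 and quantile normalization, which removes the difference in brightness; the offset understates the change of dim probes.

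SP2, a family member of low DNA-binding activity in many cell types, changed most. ILMN_1666482, its single probe, stood at 8.13, 8.11 and 8.35 on the siNR4A1 arrays, against 7.57, 7.37 and 7.71 on the siControl arrays. The lowest siNR4A1 array lay 0.41 above the highest siControl array. The log2 change was 0.65 ± 0.12 (SE, n = 3 per group), or 1.57-fold with a 95% interval of 1.31 to 1.88, at an adjusted p of 0.00204 (limma). Of the 17 member probes it was the furthest from 0, and it lay at the 96.7th percentile of the absolute change of all tested probes.

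SP1, the founding member and a general activator at GC-rich promoters, had a single probe as well. Its levels were 8.98, 9.12 and 9.20 in siNR4A1, against 8.72, 8.43 and 8.91 in siControl. The groups did not overlap, but siControl replicate 3 came within 0.07 of the lowest siNR4A1 array. SP1 rose by 0.41 ± 0.13 (SE, n = 3 per group), or 1.33-fold with a 95% interval of 1.10 to 1.61 (limma, adjusted p = 0.0425).

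SP4 was read by 2 probes. ILMN_2145997 had levels of 9.24, 9.29 and 9.38 in siNR4A1, against 8.69, 8.93 and 9.00 in siControl, with a gap of 0.24 between the groups. It rose by 0.43 ± 0.12 (SE, n = 3 per group), or 1.35-fold (limma, adjusted p = 0.0201). The dimmer ILMN_1721081 had 7.90, 7.98 and 7.89 in siNR4A1, against 7.91, 7.56 and 7.88 in siControl, so that only siControl replicate 2 stood apart. Its change was 0.14 ± 0.12 (SE), with a 95% interval of -0.11 to 0.40, and did not pass (limma, adjusted p = 0.472).

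SP3, which occupies the same GC boxes as SP1 and can activate or repress, had 4 probes that did not move alike. ILMN_2389844 stood at 10.04, 10.11 and 9.87 in siNR4A1, against 9.64, 9.72 and 9.63 in siControl, and rose by 0.34 ± 0.11 (SE, n = 3 per group), or 1.27-fold (limma, adjusted p = 0.0488). ILMN_1756942 had 9.91, 9.85 and 9.43 in siNR4A1, against 9.44, 9.60 and 9.58 in siControl, and its change of 0.19 ± 0.13 (SE) did not pass (limma, adjusted p = 0.361). On siNR4A1 replicate 3 that probe was just below the lowest siControl array. The dim ILMN_1662168 ranged from 6.61 to 7.05 in siNR4A1, against 6.49 to 7.44 in siControl, with an interval for its change of -0.42 to 0.41. ILMN_1691171 was above the detection threshold on no siNR4A1 array and 1 siControl array and was not tested.

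**Figure D1:**
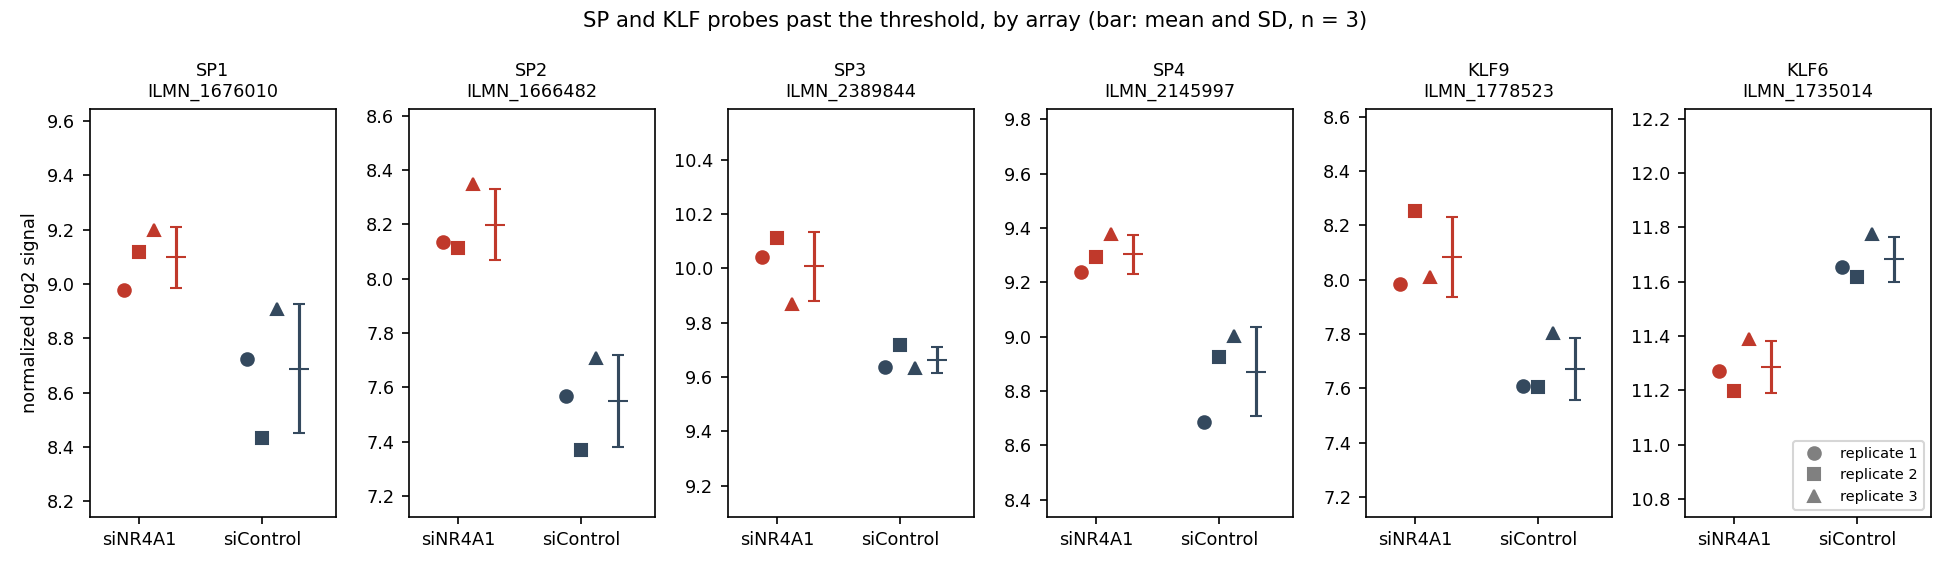
Normalized log2 signal of the 6 SP and KLF probes past the threshold, one point per array (shape: replicate), siNR4A1 in red on the left and siControl in dark blue on the right, with the mean and SD of 3 arrays beside the points; every panel spans the same range of log2 units. SP1 to SP4 and KLF9 sit higher in siNR4A1 and KLF6 lower, with the widest gap, 0.41, for SP2 and the narrowest, 0.07, for SP1.

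KLF9, a repressor and activator known to respond to steroid and thyroid hormones, rose with its single probe. The levels were 7.99, 8.25 and 8.01 in siNR4A1, against 7.61, 7.60 and 7.80 in siControl. The gap between the groups was 0.18, and siNR4A1 replicate 2 stood above the rest. The change was 0.41 ± 0.12 (SE, n = 3 per group), or 1.33-fold with a 95% interval of 1.12 to 1.58 (limma, adjusted p = 0.0274).

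KLF6, a widely expressed factor described as a tumour suppressor, was the one member whose call was a fall. Its brightest probe, ILMN_1735014, had 11.27, 11.20 and 11.39 in siNR4A1, against 11.65, 11.62 and 11.78 in siControl. All siNR4A1 arrays lay below all siControl arrays, by 0.23. On the log2 scale it fell by 0.40 ± 0.11 (SE of 3 arrays per group), at an adjusted p of 0.0242 in limma. A second bright probe, ILMN_1737406, had 9.94, 10.16 and 10.02 in siNR4A1, against 10.36, 10.60 and 10.13 in siControl, overlapping by 0.03, and its change of -0.32 ± 0.13 (SE) did not pass (limma, adjusted p = 0.104). The dim ILMN_1700727 differed by -0.19 ± 0.12 (SE; limma, adjusted p = 0.307). All 3 probes were thus lower in siNR4A1, 1 of them past the threshold.

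KLF10, a factor induced early by TGF-beta, had 3 probes, none past the threshold. The brightest, ILMN_2411897, had 7.55, 7.67 and 7.48 in siNR4A1, against 7.20, 7.40 and 7.10 in siControl, with no overlap. Its change was 0.33 ± 0.12 (SE; limma, adjusted p = 0.0661). The other 2 differed by 0.15 ± 0.16 (SE) and 0.08 ± 0.11 (SE), and their groups overlapped. On siControl replicate 2 the probe ILMN_1659122 reached 7.75, above every siNR4A1 array.

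KLF4 and KLF5, which act on epithelial growth and differentiation, were near the detection threshold. KLF4, read by ILMN_1779857, had 6.47, 6.57 and 6.44 in siNR4A1, against 6.80, 6.65 and 6.75 in siControl; the groups did not overlap, and the change of -0.24 ± 0.11 (SE) did not pass (limma, adjusted p = 0.157). Its second probe was above the threshold on 1 siControl array and was not tested. KLF5 ranged from 6.48 to 6.56 in siNR4A1, against 6.05 to 6.61 in siControl, with a change of 0.18 ± 0.13 (SE; limma, adjusted p = 0.395). KLF13, a factor known from chemokine expression in T cells, stood at 8.36, 8.10 and 8.24 in siNR4A1, against 8.36, 8.10 and 8.16 in siControl. Its change was 0.03 ± 0.12 (SE), with a 95% interval of -0.22 to 0.28 (limma, adjusted p = 0.920).

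**Figure D2:**
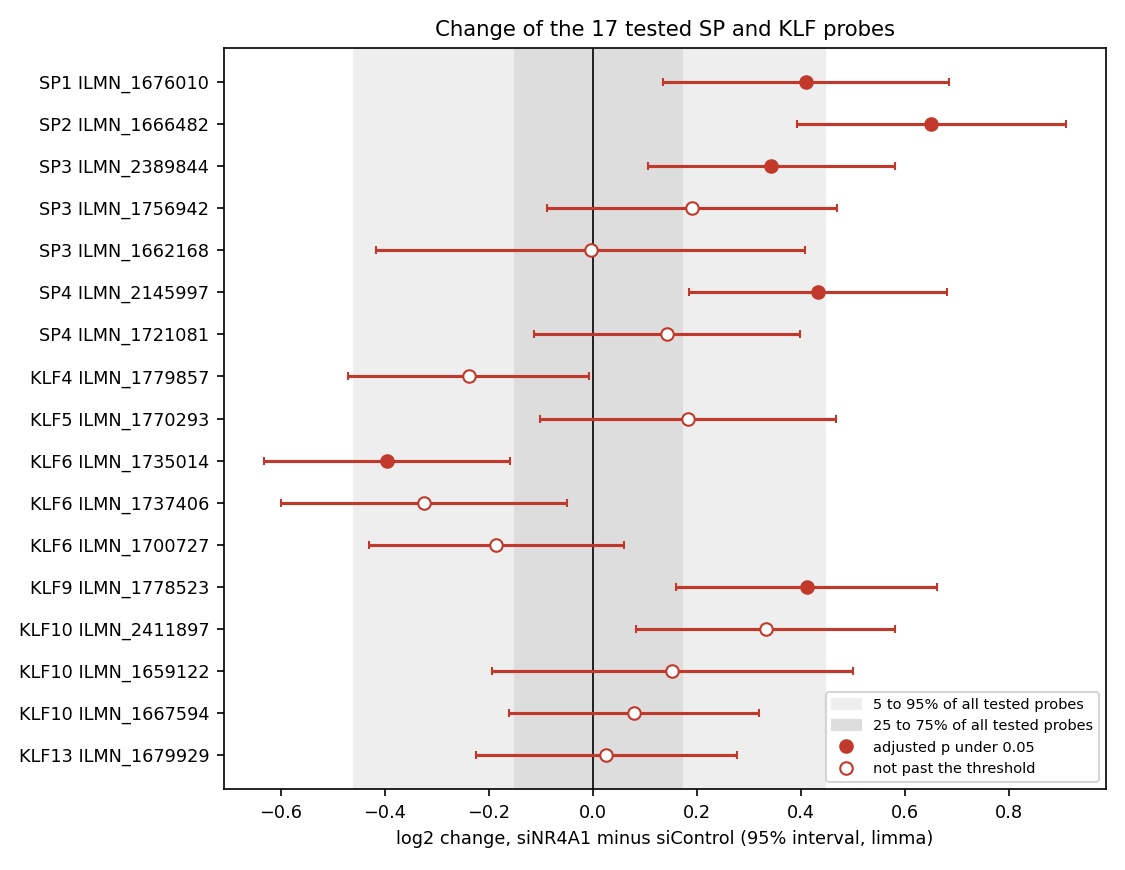
Log2 change of each of the 17 tested SP and KLF probes, siNR4A1 minus siControl, with its 95% interval from limma; filled points passed the adjusted threshold, and grey bands run from the 25% to the 75% point and from the 5% to the 95% point of the change of all tested probes. Most points lie inside the wider band, SP2 at 0.65 lies outside it, and the probes of SP3, SP4, KLF6 and KLF10 spread within each gene.

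For single probes an exact two-sided permutation test of 3 against 3 arrays cannot go below 0.1, and the 9 probes without overlap reached that value. Of the 6 changed probes, SP2 kept its call under 16 of 17 alternative settings. The exception was the equalizing of array medians in place of quantile normalization, under which SP2 stood at 0.76 with an adjusted p of 0.547 and limma called 0 of all tested probes, while 1488 had an unadjusted p below 0.05. The other 5 calls were less stable, although each kept its direction under all 17. SP1 lost its call under 9, with changes of 0.36 to 0.47 without siNR4A1 replicate 1, 2 or 3, 0.43 without siControl replicate 1 and 0.29 without siControl replicate 2. SP3 lost its call under 11, leaving out any of the 6 arrays included, with changes of 0.29 to 0.41, and stood at 0.18 as the mean of its probes. SP4 lost its call under 7, at 0.44 and 0.39 without siNR4A1 replicates 2 and 3, at 0.34 without siControl replicate 1 and at 0.29 as the mean of its probes. KLF9 lost its call under 7, at 0.32 and 0.44 without siNR4A1 replicates 2 and 3 and at 0.39 and 0.38 without siControl replicates 1 and 2. KLF6 lost its call under 7, at -0.39 and -0.35 without siNR4A1 replicates 1 and 2 and at -0.41 and -0.35 without siControl replicates 1 and 3. With array medians equalized the change of KLF6 was -0.15. KLF10, which did not pass, did so with array weights at 0.37, with the replicate number as a block at 0.33 and without siControl replicate 2 at 0.43; without that array a second KLF10 probe passed at 0.41. Without siControl replicate 3 the KLF6 probe ILMN_1737406 passed at -0.44.

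**Figure D3:**
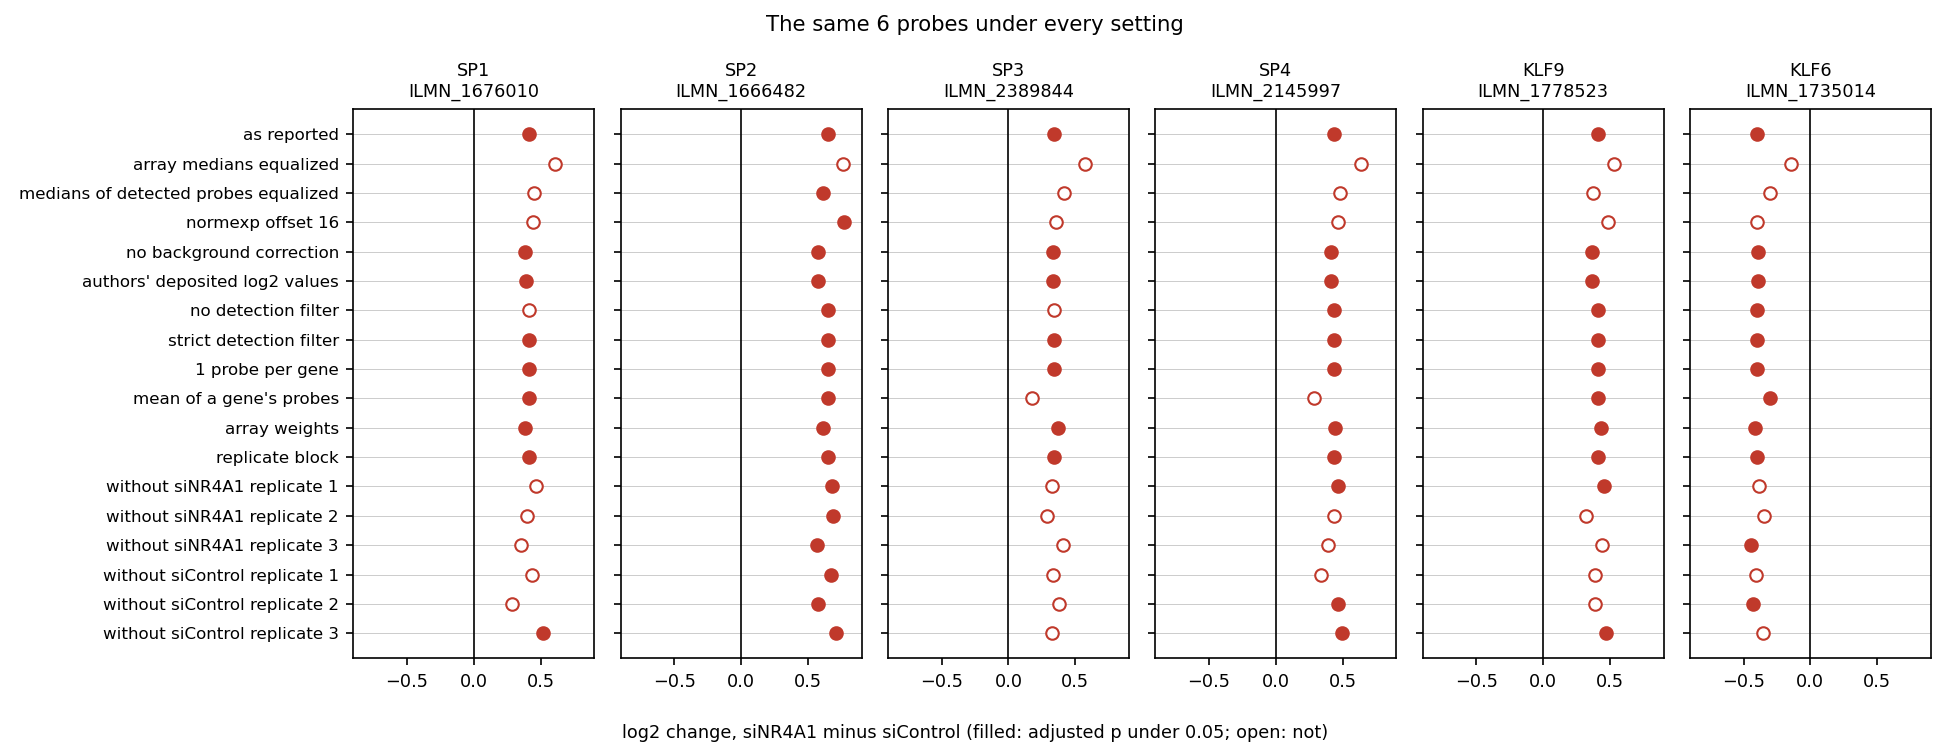
Log2 change of the 6 probes, siNR4A1 minus siControl, under the reported setting (top row) and 17 alternatives; filled points passed the adjusted threshold and open points did not. All points of a panel lie on one side of 0, and SP2 is filled in every row but the one with array medians equalized, at 0.76.

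Since the calls moved with the scaling of the arrays, the members were also compared within each array, where no scaling between arrays enters. The difference between a member and the KLF6 probe ILMN_1735014 was taken on each array before normalization; KLF6 was chosen for this after its fall had been seen, and a difference of this kind shows unequal change, not which of the genes changed. For SP1 the log2 difference was -2.29, -2.08 and -2.23 on the siNR4A1 arrays, against -2.93, -3.11 and -2.82 on the siControl arrays. For SP2 it was -3.16, -3.13 and -3.10 in siNR4A1, against -3.98, -4.03 and -4.10 in siControl. In both cases the groups lay far apart. For SP1 siControl replicate 3 still stood nearest to siNR4A1, while for SP2 it no longer did. The shift between the groups was 0.75 for SP1, 0.91 for SP2, 0.72 for the SP3 probe ILMN_2389844, 0.78 for the SP4 probe ILMN_2145997 and 0.67 for KLF9. Since KLF6 was picked for its fall and these 5 probes for their rise, that the groups are apart here was largely fixed by the choice, and no test is given. Of the 11 other probes, which did not pass the threshold, 3 were apart as well, the SP3 probe ILMN_1756942 at 0.56, the SP4 probe ILMN_1721081 at 0.41 and KLF13 at 0.32. The other 8 overlapped, among them the brightest KLF10 probe at 0.59, KLF5 at 0.29, KLF4 at -0.07 and the second KLF6 probe at 0.06. How large a share of all tested probes is apart in this way was not computed. The count of 3 among 11 therefore cannot be read as a trait of the members. With no background correction the shifts of the 5 risen probes ran from 0.63 to 0.84, and with an offset of 16 from 0.75 to 1.07. Against KLF13 in place of KLF6 the shifts were 0.43 for SP1, 0.59 for SP2, 0.40 for SP3, 0.46 for SP4 and 0.35 for KLF9, and SP1 overlapped between the groups. The SP2 difference from KLF13 was -0.22, 0.01 and 0.12 in siNR4A1, against -0.72, -0.63 and -0.51 in siControl. Here siControl replicate 3 was again nearest to siNR4A1. The 5 probes were again those picked for their rise, and KLF13 had a normalized change of 0.03. Shifts above 0 were thus largely fixed by the choice here too. Against KLF6 the dim KLF4 probe stood at -5.26 on siControl replicate 3, the brightest array. On siControl replicates 1 and 2 it stood at -4.63 and -4.61. For KLF5 the value was -5.46, against -4.93 and -5.07, while SP1 was highest of the siControl arrays there. The part of array brightness in these differences was not tested.

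**Figure D4:**
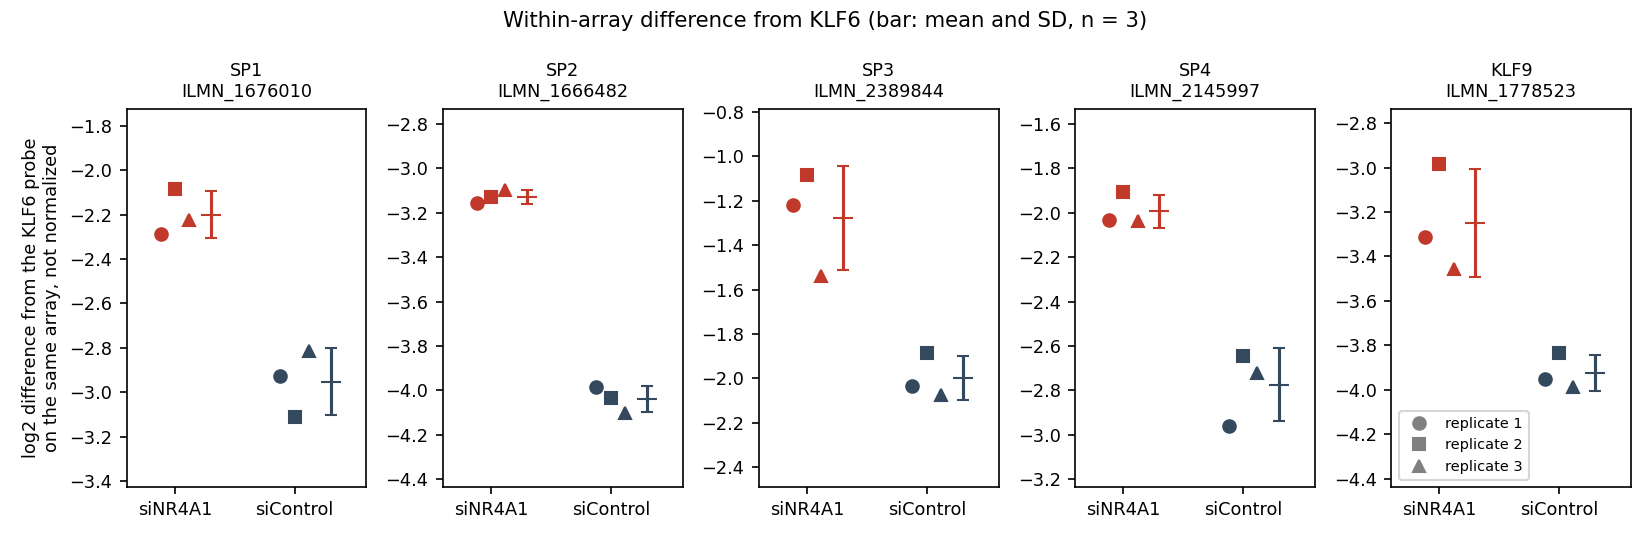
Log2 difference between each probe and the KLF6 probe on the same array, without normalization between arrays, one point per array (shape: replicate), siNR4A1 in red on the left and siControl in dark blue on the right, with the mean and SD of 3 arrays. The groups are apart for all 5 probes, with shifts of 0.67 for KLF9 to 0.91 for SP2. KLF6 was picked for its fall and the 5 probes for their rise, so this separation was largely fixed by the choice.

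Over the 6 arrays the SP1 and SP2 probes had a Pearson correlation of 0.94, and SP1 and the SP4 probe ILMN_2145997 one of 0.79. These are descriptions over arrays that share the group difference and the normalization. Among 11657 genes detected on all 6 arrays, the 5 most like SP1 by Pearson's r were LOC401115, ATPAF2, PHIP, VKORC1 and TTC13, with r between 0.993 and 0.999. None of these 5 passed the test, and 230 genes had an r over 0.95.

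In the rest of the SP and KLF family, 4 of 16 listed genes were detected, and 2 rose and 0 fell. The background for genes, each read by its brightest tested probe, was 16.9% changed, 9.22% rising and 7.72% falling. KLF2, a factor best known from quiescent endothelium, stood at 9.43, 9.50 and 9.59 in siNR4A1, against 8.63, 8.57 and 8.71 in siControl. It rose by 0.87 ± 0.11 (SE), at an adjusted p of 8.18e-05 in limma, more than any of the 10 members, and kept its call under 16 of 17 alternatives. KLF11, a relative of KLF10 that recruits the SIN3A corepressor, had 8.80, 8.98 and 8.88 in siNR4A1, against 8.38, 8.17 and 8.67 in siControl. It rose by 0.48 ± 0.13 (SE; limma, adjusted p = 0.0197), and its second tested probe stood at 0.45. The call of KLF11 was lost under 7 alternatives, among them leaving out siNR4A1 replicate 2 (0.43) or 3 (0.49) and siControl replicate 1 (0.48) or 2 (0.37). KLF3 differed by -0.04 ± 0.12 (SE) and SP8 by -0.03 ± 0.12 (SE). SP5, SP6, SP7, KLF1, KLF7, KLF8, KLF12, KLF14, KLF15, KLF16 and KLF17 were not detected on enough arrays, and SP9 had no probe.

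The lists that follow were chosen from general knowledge with earlier results of these data known. Of the coregulators that SP and KLF proteins recruit, 17 of 18 were tested, 5 rose and 3 fell, and their median log2 change was -0.00, against 0.02 for all genes. The 8 changes stand against 16.9% of all genes changed, the rises against 9.22% and the falls against 7.72%. CTBP1, a corepressor of KLF proteins, rose by 0.74 ± 0.14 (SE), SAP30, a subunit of the SIN3 complex, by 0.69 ± 0.13 (SE), the acetyltransferase KAT2B by 0.69 ± 0.11 (SE) and TAF4, a subunit of the general factor TFIID that SP1 contacts, by 0.39 ± 0.11 (SE). Those 4 had the smallest p-values of the list; the remaining 4 are named after their values were seen, to complete the counts. CTBP2, the paralog of CTBP1, rose by 0.43 ± 0.14 (SE), while the acetyltransferase EP300 fell by 0.42 ± 0.12 (SE), the deacetylase HDAC3 by 0.36 ± 0.12 (SE) and the corepressor NCOR1 by 0.53 ± 0.17 (SE). The other tested CTBP2 probe stood at 0.14 ± 0.16 (SE) and did not pass. For CTBP1 the other tested probes stood lower than the brightest. ILMN_2379734 passed at 0.46 ± 0.11 (SE; limma, adjusted p = 0.0104), and ILMN_2278235 did not at 0.41 ± 0.16 (SE; limma, adjusted p = 0.0993). By the brightest probe the adjusted p-values of the 8 genes ran from 0.000709 for KAT2B to 0.0477 for NCOR1 (limma). CTBP1, SAP30 and KAT2B kept their calls under 16 of 17 alternatives, and the other 5 genes lost theirs under 6 to 10. The list's count was 8, but 0 with array medians equalized, where no probe of the whole array passed. It was 3 without siNR4A1 replicate 1, siNR4A1 replicate 3 or siControl replicate 2, and 5 without siControl replicate 1. With an offset of 16 or with medians of detected probes equalized it was 4, and with no detection filter 5.

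A list of 18 genes, drawn up as other factors that bind GC-rich promoter boxes, also held the subunits of NF-Y, which binds CCAAT. Of the 18, 15 were tested, 2 rose, 0 fell and 13 did not pass by their brightest probe. Among all genes 16.9% changed and 9.22% rose, so the count of this mixed list is near the background. Among the 13, YY1, a zinc finger activator and repressor, stood at 0.37 ± 0.13 (SE) by its brightest probe, and its other probe passed at 0.50 ± 0.13 (SE; limma, adjusted p = 0.0193). The immediate early factor EGR1 rose by 0.55 ± 0.13 (SE; limma, adjusted p = 0.00785) and the zinc finger repressor ZNF281 by 0.36 ± 0.11 (SE; limma, adjusted p = 0.0380). The EGR1 call was lost without siNR4A1 replicate 1, at 0.44, and that of ZNF281 without siNR4A1 replicate 1, 2 or 3 and without siControl replicate 1 or 2, at 0.31 to 0.38. Without siControl replicate 3 the list's count was 4. The next 5 genes did not pass or were not tested and are named after their values were seen, for their bearing on SP genes or on the CCAAT box. ZBTB4, a repressor of SP gene expression, differed by -0.06 ± 0.11 (SE), and ZBTB10, another, was not tested since it was detected on 2 arrays. The subunits of NF-Y, the factor that binds CCAAT, did not pass: NFYA differed by 0.04, NFYB by 0.06 and NFYC by -0.16.

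Of 19 enzymes that modify or degrade SP and KLF proteins 17 were tested, 2 rose and 1 fell by their brightest probe, near the 16.9% of all genes that changed. RNF4, a ubiquitin ligase that recognises SUMO-modified proteins, fell by 0.70 ± 0.12 (SE), and its other probe by 0.85 (limma, adjusted p = 0.000785 for the brighter probe). The atypical kinase PRKCZ rose by 0.49 ± 0.11 (SE) and SUMO2 by 0.46 ± 0.11 (SE); in limma these had an adjusted p of 0.00879 for PRKCZ and of 0.0107 for SUMO2. Without siNR4A1 replicate 3 both lost their calls, PRKCZ at 0.45 and SUMO2 at 0.44, and PRKCZ did so as the mean of its probes, at 0.31. The other tested probe stood at 0.14 for PRKCZ and at 0.26 for SUMO2, and neither passed. The ubiquitin ligase STUB1 was not counted, at -0.13 ± 0.16 (SE) by its brightest probe, while its other probe passed at -0.45 ± 0.13 (SE; limma, adjusted p = 0.0238).

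Of 24 genes reported as dependent on SP factors in cancer cells 21 were tested. By their brightest probe 3 rose, 1 fell and the remaining 17 stayed short of the threshold, near the 16.9% of all genes that changed. The median of their log2 changes was 0.01. BIRC5, the apoptosis inhibitor survivin, rose by 0.96 ± 0.12 (SE), cyclin D1 (CCND1) by 0.93 ± 0.13 (SE) and the receptor ERBB3 by 0.39 ± 0.13 (SE), while the NF-kB subunit RELA fell by 0.87 ± 0.15 (SE). In limma the adjusted p was 8.18e-05 for BIRC5, 0.000210 for CCND1, 0.0488 for ERBB3 and 0.00111 for RELA. Among the 17, the integrin subunit ITGB1 stood at -0.21 ± 0.12 (SE) by the brightest of its 4 tested probes, while 2 others passed at -0.63 ± 0.11 and -0.51 ± 0.13 (SE) and the last stood at 0.07. YY1, STUB1 and ITGB1 are the genes of these lists with a changed probe that the brightest one does not show, and were named after their values were seen. ERBB3 was detected on 2 of the 3 siControl arrays, and its call was lost under 11 of 16 alternatives, at 0.22 with medians of detected probes equalized and at 0.31, 0.37, 0.34 and 0.39 without siNR4A1 replicate 1, siNR4A1 replicate 3, siControl replicate 1 and siControl replicate 2.

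**Figure D5:**
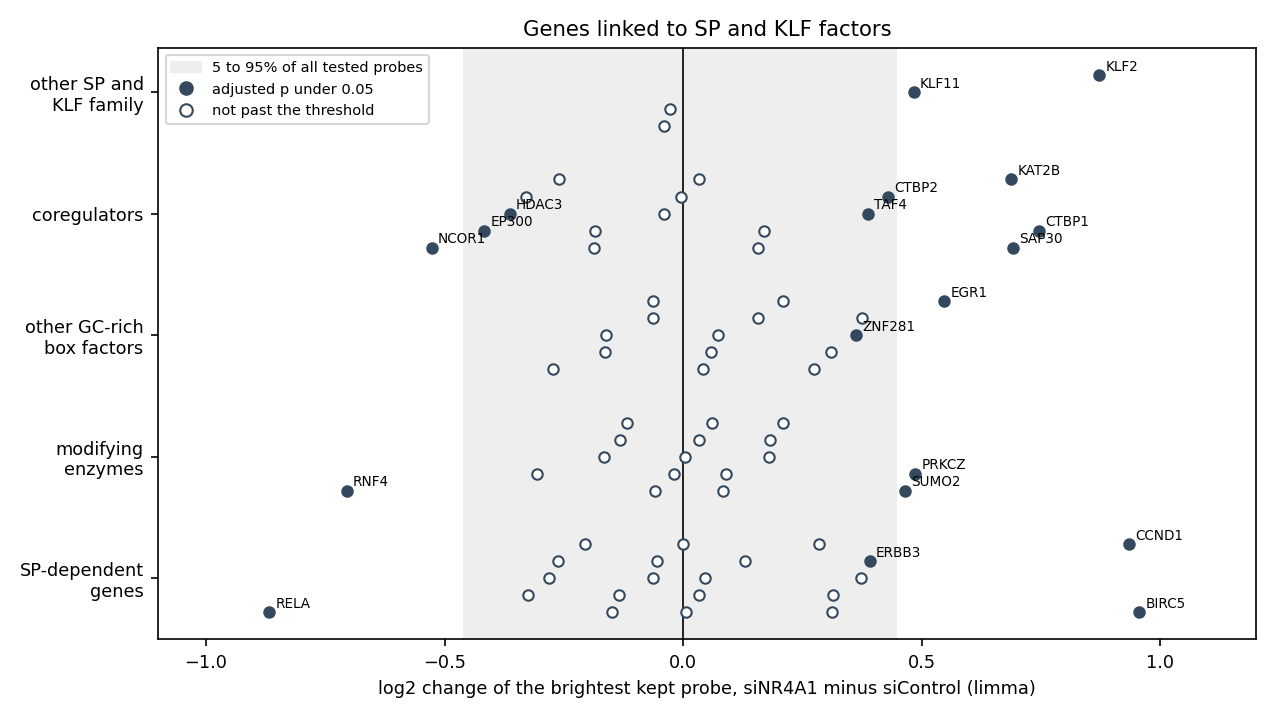
Log2 change of genes linked to SP and KLF factors, siNR4A1 minus siControl, each read by its brightest tested probe, in 5 lists (rows; points are spread vertically for legibility); filled and named points passed the adjusted threshold, and the grey band runs from the 5% to the 95% point of all tested probes. KLF2 at 0.87 leads its family, and most points of the other lists lie in the band on both sides of 0.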

How the data were processed

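Total RNA of 6 PANC-1 samples was hybridised to Illumina BeadChips. The deposited intensity table holds linear signals that were not normalized, per the file headers, and whose values show no background subtraction. Neither control probes nor detection p-values come with it. The submitters' processing notes name BeadStudio without a version. The authors' log2 values, deposited as a second table, equal quantile-normalized log2 intensities within 0.005, and served as an alternative. No genome build for the probes was given in the sources used here.

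From the intensities, signals were background-corrected by normexp (offset 50), quantile-normalized and put on the log2 scale. An array's background was set from the mode of its log2 signals (bandwidth 0.03) and the spread below it, and detection meant a signal above the 95% point of that background. The 19083 probes detected on at least 3 arrays were tested over all 6 arrays, without covariates, by lmFit and eBayes of limma 3.58.1 under R 4.3.3. P-values were adjusted by Benjamini-Hochberg over all of these, at a threshold of 0.05. The steps were tested on simulated signals. Linked genes were read by their brightest tested probe, and of each list up to 4 genes past the threshold, those with the smallest p, were named. The alternatives changed the normalization, background, filter, probe summary, weights, block or set of arrays; the comparison within arrays was added after seeing the data. Members and lists were chosen with earlier results of these data known. The number of arrays limits the precision.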

Additional observations from a re-analysis of the deposited data

How the results depend on the processing

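When array medians were equalized and quantiles were not, 0 of the 17 SP and KLF probes and 0 of all probes passed in limma (4 and 1488 at an unadjusted p under 0.05), and the median change of all probes moved to 0.11. With medians of detected probes equalized 1 of 17 and 1358 of all probes passed, and with an offset of 16 the member count was 1. The cause of these moves was not tested. Leaving out 1 array gave 1 to 5 member probes and 1506 to 3423 probes in all. Without siNR4A1 replicates 1, 2 and 3 and siControl replicate 1 the member counts were 3, 1, 2 and 1, and without siNR4A1 replicates 1, 2 and 3 all probes gave 1941, 1886 and 1506; each such fit has fewer samples. The labels give same-numbered arrays a number and state no pairing. Deviations of same-numbered arrays from the group means correlated at 0.04, 0.10 and 0.18. Replicates 2 and 3 of siNR4A1 correlated best with their own number. Replicate 1 did not, at 0.038 against 0.042 with siControl replicate 2. Whether the arrays were paired cannot be told from these values. With the replicate block the member count was 7, against 6, and that of all probes 3449, against 2976. No SP or KLF probe that passed changed sign under any of the alternatives run. Signal over background limits the dimmest probes, those of KLF4, KLF5, SP3 (ILMN_1662168), KLF6 (ILMN_1700727) and KLF10 (ILMN_1667594).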
